A study of Mus musculus with 6 samples.

Results

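Mitochondrial DNA encodes the core membrane subunits of the respiratory chain, and 10 of its protein-coding genes were followed here in mouse testis: mt-Nd1, mt-Nd2, mt-Nd4, mt-Nd5 and mt-Nd6 of complex I (NADH dehydrogenase), mt-Cytb of complex III, mt-Co1, mt-Co2 and mt-Co3 of complex IV (cytochrome c oxidase) and mt-Atp6 of complex V (ATP synthase). They were taken by symbol, and each of the 10 had an Ensembl identifier among the 53700 genes counted. The mitochondrial genome as annotated holds 37 genes, of which 13 code for proteins, 2 for ribosomal RNAs and 22 for tRNAs. Of the 10 genes, 7 had reads and were tested, and 3 (mt-Co2, mt-Co3 and mt-Atp6) were at 0 in each of the 6 libraries.

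The libraries came from testes of mice at postnatal day 45, 3 of them Msl3 wild type (WT) and 3 carrying a floxed Msl3 and labelled conditional knockout (cKO). Msl3 is an X-linked subunit of a histone-acetylating complex, and the series asks whether spermatogenesis changes on its loss. The strain entry, Msl3em1Forni/C57BL/6J, is the same for both groups. The recombinase, the cells it acts in, and the library kit are not given in the sources used here. Each library is labelled a biological replicate, so p-values rest on the spread between these mice. They do not measure it alone, because the fit draws the variance of each gene towards a trend over all genes.

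Mitochondrial DNA is circular and is transcribed from both strands into long precursors. Excision of the tRNAs that lie between most genes releases the ribosomal RNAs and the messengers. The messengers other than that of mt-Nd6 are read in the same direction (here heavy-strand RNA), and mt-Nd6 is read in the other (light-strand RNA). In the testis, spermatogonia and Sertoli cells rely more on glycolysis, while spermatocytes and spermatids depend on respiration. The sperm midpiece carries a sheath of mitochondria that is assembled late in spermiogenesis.

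The libraries held 56991431 to 73766444 reads assigned to single genes. Reads that mapped to several places made up 6.10% to 6.75% of a library and reads outside genes 4.98% to 6.94%. Msl3 itself was at 16.9 ± 1.68 CPM (read counts relative to the scaled library size, on the usual CPM scale; SD, n = 3) in WT and 15.5 ± 0.649 CPM (SD, n = 3) in cKO, a log2 fold change of -0.12 with an edgeR adjusted p of 0.550. The deleted exons are not given in the sources used here, so the count of the whole gene does not check the labels, and "cKO" below means the libraries labelled so. The 57 listed markers of 10 testicular cell types all had enough reads to be tested. Of them, 0 passed the edgeR threshold, beside 0.0183% of all genes tested. At an unadjusted edgeR p under 0.05, 3 round spermatid, 2 elongating spermatid, 2 Leydig, 3 macrophage and 1 peritubular myoid markers were lower in cKO. Higher were 2 Sertoli, 1 endothelial and 1 peritubular myoid markers. Each list held 5 or 6 markers, and of all genes tested 6.54% were lower and 7.32% higher at that p. Elongating spermatid markers were the highest, with a summed level of 15064 to 16470 CPM in WT and 12606 to 15693 CPM in cKO.

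The counting kept reads with a single mapping place, so reads from sequence that a mitochondrial gene shares with a nuclear copy do not enter the count of either. Each gene was therefore cut into all windows of 75 bases, the read length, and each window was looked up in the GENCODE M21 transcripts of nuclear genes, on both strands, from which the sequences below are also taken. For mt-Co2 (ENSMUSG00000064354, chrM:7013-7696, mm10), 607 of 610 windows occurred elsewhere, all 607 in the pseudogene Gm28661. For mt-Atp6 (ENSMUSG00000064357, chrM:7927-8607), 604 of 607 windows occurred in Gm10925. For mt-Co3 (ENSMUSG00000064358, chrM:8607-9390), 709 of 710 occurred in Gm28437. These are the genes at 0.

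The 3 pseudogenes belong to a block of 7 mitochondrial copies at chr1:24611535-24616197, which spans 4663 bases of nuclear DNA on the minus strand. Over the aligned 681, 678 and 783 bases, Gm28661, Gm10925 and Gm28437 differed from mt-Co2, mt-Atp6 and mt-Co3 at 0 positions. The first 75 bases of the 3 genes, which read the same in gene and copy, are shown because a read from either place cannot be told apart:
mt-Co2 and Gm28661: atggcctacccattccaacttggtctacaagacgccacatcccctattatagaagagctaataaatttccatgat
mt-Atp6 and Gm10925: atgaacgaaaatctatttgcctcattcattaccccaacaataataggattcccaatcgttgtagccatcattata
mt-Co3 and Gm28437: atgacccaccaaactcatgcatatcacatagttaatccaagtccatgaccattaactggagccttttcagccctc

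The block begins inside mt-Co1. The pseudogene Gm29216 (chr1:24615706-24616197) matched bases 1054 to 1545 of mt-Co1 (ENSMUSG00000064351, chrM:5328-6872) with 6 differences, all near its edge. Bases 1054 to 1128 of the gene and the matching stretch of the copy are shown, with the differing bases in capitals:
mt-Co1: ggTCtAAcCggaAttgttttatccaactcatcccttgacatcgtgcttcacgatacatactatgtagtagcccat
Gm29216: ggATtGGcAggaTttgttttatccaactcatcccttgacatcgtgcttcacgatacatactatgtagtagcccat

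At its other end the block stops inside mt-Nd4 (ENSMUSG00000064363, chrM:10167-11544), whose bases 1 to 876 were identical in Gm28439. Of the windows of mt-Nd4, 61.5% were shared, and of those of mt-Co1 39.8% were, so both genes kept countable sequence. Of the 586 shared windows of mt-Co1, 405 were in Gm29216 and the rest in another annotated gene. Of the 12 annotated copies found in all, 5 lay outside chromosome 1. The other members shared little: 5.71% of windows in mt-Nd2 (ENSMUSG00000064345, chrM:3914-4951), 1.66% in mt-Nd5 (ENSMUSG00000064367, chrM:11742-13565) and 0% in mt-Nd1 (ENSMUSG00000064341, chrM:2751-3707), mt-Cytb (ENSMUSG00000064370, chrM:14145-15288) and mt-Nd6 (ENSMUSG00000064368, chrM:13552-14070).

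The 3 protein genes that are not among the 10 fell in the same stretch and were also at 0 reads on their own strand. Complex I subunits mt-Nd3 and mt-Nd4l shared 97.8% and 98.7% of their windows with Gm28438 and Gm10222. The copy of mt-Nd3 had 1 difference, T3C counted from the first base of the gene, shown in capitals because it is the single base that separates the aligned 345 bases:
mt-Nd3: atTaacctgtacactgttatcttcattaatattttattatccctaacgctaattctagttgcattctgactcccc
Gm28438: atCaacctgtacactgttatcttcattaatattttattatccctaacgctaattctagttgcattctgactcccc

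The complex V gene mt-Atp8 was at 0 reads with 0 of its 130 windows in an annotated transcript. The chromosome 1 block has 233 bases without annotation between Gm10925 and Gm28661, the copies of the genes on either side of mt-Atp8, and that stretch was not searched. The 7 pseudogenes of the block had 11 reads on the counted strand in the 6 libraries together, and all 12 annotated copies had 102. A count of 0 therefore limits uniquely mapped reads of mt-Co2, mt-Co3 and mt-Atp6 to at most 0.0411 to 0.0536 CPM per library (3 reads, counting error only) and gives no level of their RNA. The reads that mapped to several places, 4145245 to 5460673 per library, were not divided between genes in the tables.

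**Figure D1:**
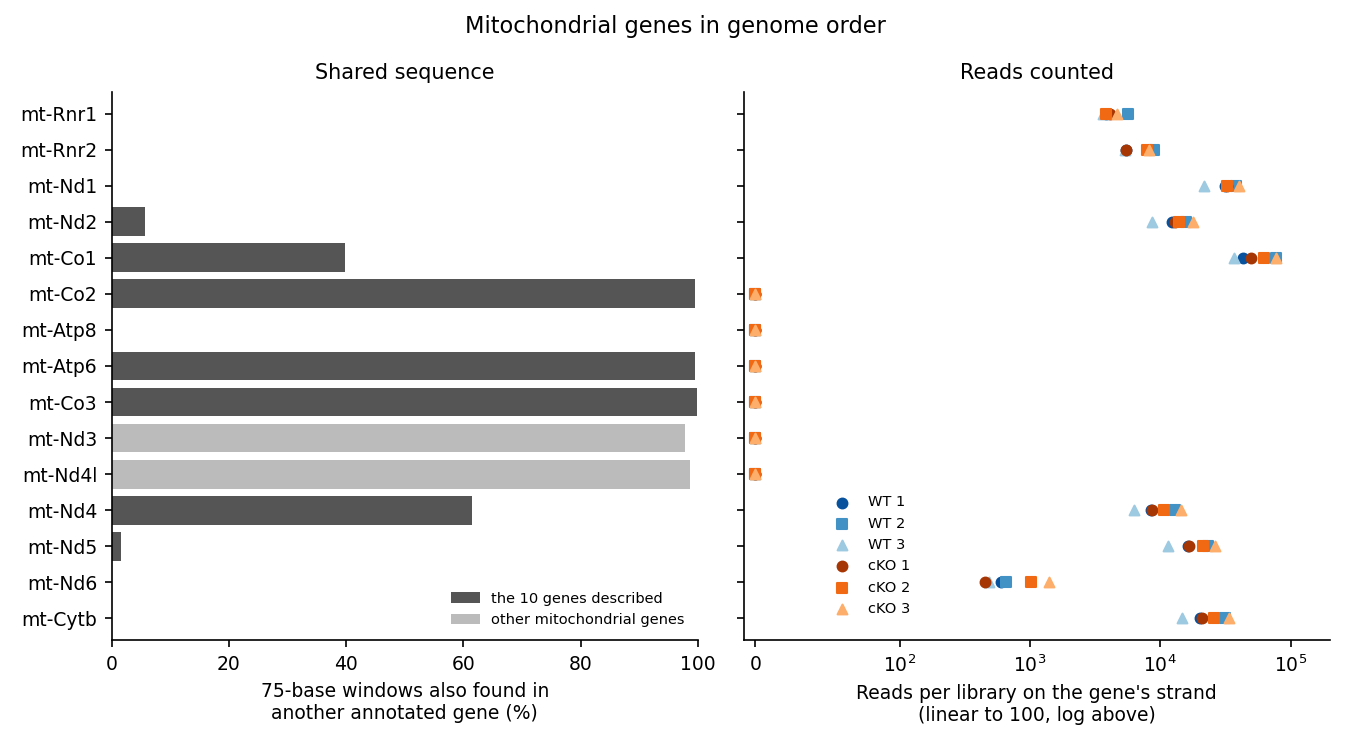
Left, share of the 75-base windows of each mitochondrial gene that also occur in another annotated gene (%), in genome order; right, reads counted on the gene's own strand in the 6 libraries (linear to 100, log above). The genes with over 97% of their windows shared, and mt-Atp8, sit at 0, while mt-Co1 and mt-Nd4, with 39.8% and 61.5% shared, have reads in each library.

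The 7 countable genes were measured next in each library. mt-Co1, the catalytic subunit of cytochrome c oxidase that holds the site of oxygen reduction, had 732, 1200.0 and 588 CPM in WT 1, 2 and 3 and 677, 1124 and 1321 CPM in cKO 1, 2 and 3. The groups overlapped, with WT 2 above cKO 1 and cKO 2 and with WT 1 above cKO 1. Its log2 fold change of 0.31 (SE 0.25) amounts to 1.24-fold with 95% limits of 0.849 and 1.81 (edgeR adjusted p 0.607).

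mt-Cytb, the cytochrome b of complex III that carries electrons across the membrane, had 341, 485 and 237 CPM in WT 1, 2 and 3 and 288, 465 and 581 CPM in cKO 1, 2 and 3. Here too WT 2 lay above cKO 1 and cKO 2, and the lowest library was WT 3. Its log2 fold change of 0.33 (SE 0.25) had an edgeR adjusted p of 0.577.

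Of the complex I genes, mt-Nd1, whose protein lines the ubiquinone pocket, had 535, 588 and 349 CPM in WT 1, 2 and 3 and 444, 585 and 693 CPM in cKO 1, 2 and 3. mt-Nd5, one of the antiporter-like proton-pumping subunits, had 279, 359 and 184 CPM in WT and 229, 383 and 449 CPM in cKO, in the same order of replicates. Both genes were lowest in WT 3 and highest in cKO 3, with overlapping groups. Their log2 fold changes were 0.23 (SE 0.18) and 0.37 (SE 0.24), with edgeR adjusted p of 0.597 and 0.505.

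The other antiporter-like subunits gave the same picture. mt-Nd2 had 210, 243 and 139 CPM in WT 1, 2 and 3 and 176, 248 and 304 CPM in cKO 1, 2 and 3. mt-Nd4 had 143, 199 and 101 CPM in WT and 119, 192 and 247 CPM in cKO. The groups overlapped for both. Their log2 fold changes were 0.30 (SE 0.20) and 0.33 (SE 0.25), with edgeR adjusted p of 0.521 and 0.572.

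mt-Nd6, the complex I subunit encoded on the other strand, had the lowest level of the 7 and departed most from the rest. It had 600, 654 and 483 reads in WT 1, 2 and 3 and 454, 1025 and 1386 reads in cKO 1, 2 and 3. As levels these were 10.2, 10.1 and 7.77 CPM in WT and 6.22, 18.3 and 23.7 CPM in cKO. The cKO group held both the highest library and the lowest, so the groups overlapped. Its log2 fold change of 0.77 (SE 0.34) amounts to 1.71-fold with 95% limits of 1.03 and 2.86, with an unadjusted edgeR p of 0.0414 and an adjusted p of 0.345. Its within-group SD of log2 CPM, 0.71, was the highest of the 7 genes. The fit drew its variance towards the trend over all genes, so these limits understate the spread between the mice. Without cKO replicate 1 mt-Nd6 passed the threshold (log2 fold change 1.17, edgeR adjusted p 0.00228). That fit called 628 of 22255 genes in all (2.82%, with 2.46% higher in cKO), against 4 with all 6 libraries, so the call was not particular to mt-Nd6. Without cKO replicate 3 its log2 fold change was 0.38 (edgeR adjusted p 0.693).

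**Figure D2:**
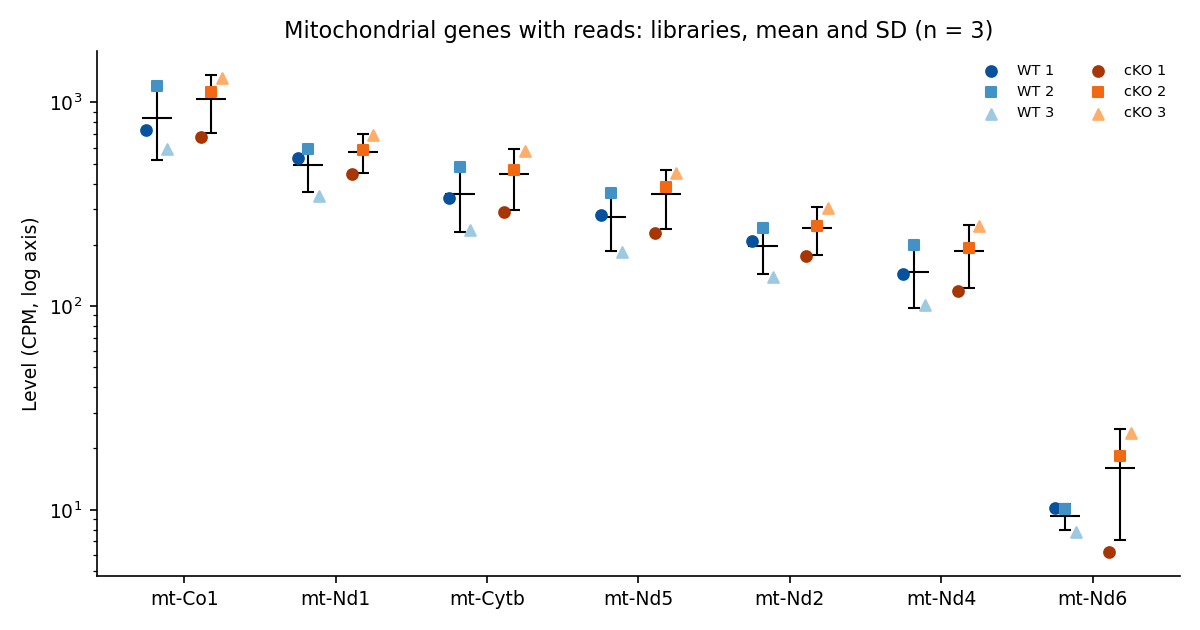
Level of the 7 mitochondrial protein-coding genes with reads in the 6 libraries (CPM, log axis), with the mean and SD of each group of 3. In each gene the cKO and WT libraries overlap, and cKO 3 is the highest library, at 1321 CPM for mt-Co1 and 23.7 CPM for mt-Nd6.

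At the edgeR adjusted p threshold of 0.05, 0 of the 7 genes were called, beside 0.0183% of the 21902 genes tested (0.00913% higher and 0.00913% lower in cKO), and DESeq2 also called 0, beside 1.78% of the 11711 genes to which it gave an adjusted p. Without a filter on low counts, 6 of the 7 were called by edgeR, mt-Nd1 being the exception, beside 2.07% of the 36605 genes then tested. The prior degrees of freedom of that fit were infinite, against 7.90 with the filter. Its tests then took the variance from the trend over all genes, not from the spread of each gene. With the filter, both entered. At an unadjusted p under 0.05 there was 1 gene, mt-Nd6, higher in cKO, beside 13.9% of all genes tested (7.32% higher in cKO), and 0 of the 7 had non-overlapping groups, beside 18.9%. Each of the 7 had a positive log2 fold change, as did 50.7% of all genes tested. The median was 0.33, from 0.23 for mt-Nd1 to 0.77 for mt-Nd6, against 0.0030 over all genes tested. That median rested on single libraries. It was 0.61 without WT replicate 2, 0.56 without cKO replicate 1, 0.10 without WT replicate 3 and 0.10 without cKO replicate 3. In whole tissue, more cells rich in mitochondrial RNA and more such RNA per cell cannot be told apart.

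Summed over the 10 genes, of which 3 enter at 0, the level was 2251, 3084 and 1606 CPM in WT 1, 2 and 3 and 1940.3, 3015 and 3618 CPM in cKO 1, 2 and 3. The mean was 2314 ± 741 CPM (SD, n = 3) in WT and 2858 ± 849.8 CPM (SD, n = 3) in cKO. The difference between the group means was smaller than the SD of either group. From WT 3 to cKO 3 the sum differed 2.25-fold. As a share of all reads, unassigned ones included, the counted reads of the 10 genes took from 0.136% in WT 3 to 0.306% in cKO 3. Reads from sequence shared with nuclear copies are not in the sum or the share, so neither gives the whole level of the 10 genes.

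The genes followed one another closely over the libraries. WT 2, cKO 2 and cKO 3 were the 3 highest libraries for 6 of the 7 genes, mt-Nd6 being the exception, cKO 3 was the highest for 7, and WT 3 the lowest for 6. The shared profile, taken as the mean over the 7 genes of log2 CPM centred on each gene, ran from -0.63 in WT 3 to 0.62 in cKO 3. Single genes lay at a root mean square distance of 0.04 (mt-Nd5) to 0.15 (mt-Nd1) log2 units from it, and mt-Nd6 at 0.34, where a flat profile would lie at 0.44. Each gene is part of the mean it is set against, which makes its distance smaller. Within groups the SD of log2 CPM was 0.36 to 0.71 for the 7 genes, against a median of 0.11 over the 16818 nuclear genes whose mean reached 1 CPM. Of those nuclear genes, 98.8% had a smaller SD than mt-Nd1, the steadiest of the 7. Because the fit draws variances towards the trend over all genes, the standard errors of the 7 are smaller than their own spread would give.

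For the 6 genes other than mt-Nd6, shares within the mitochondrial reads varied less over the libraries than the summed level, by at most 1.25-fold from lowest to highest. mt-Co1 made up 32.5%, 38.9% and 36.6% of the reads of the 7 genes in WT 1, 2 and 3 and 34.9%, 37.3% and 36.5% in cKO 1, 2 and 3. mt-Nd1 made up 23.8%, 19.1% and 21.7% in WT and 22.9%, 19.4% and 19.1% in cKO. The libraries in which mt-Nd1 took the largest shares, WT 1 and cKO 1, were those in which mt-Co1 took the smallest. Accordingly, reads of mt-Co1 per 100 reads of mt-Nd1 ran from 137 in WT 1 to 204 in WT 2. The highest share exceeded the lowest by 1.09-fold for mt-Cytb, 1.11-fold for mt-Nd4 and mt-Nd5, and 2.05-fold for mt-Nd6. Groups overlapped for the share of each gene.

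Levels of different genes were set side by side per 1000 unshared windows, since shared windows cannot yield counted reads. On that scale mt-Co1 was the highest with a mean of 1062 CPM per 1000 windows over the 6 libraries, followed by mt-Nd1 with 603, mt-Cytb with 373, mt-Nd4 with 333, mt-Nd2 with 242 and mt-Nd5 with 182. mt-Nd6 came last with 28.6. Within each library mt-Nd1 stood above mt-Cytb, and mt-Cytb above mt-Nd4. Unshared windows are those absent from annotated nuclear transcripts, which limits the scale, since mt-Atp8 had 0 reads over 130 of them. The chromosome 1 copies cover the end of mt-Co1 and the start of mt-Nd4, so different parts of these genes were compared. The 2 ribosomal RNA genes, whose products form the mitochondrial ribosome, had 78.4 (mt-Rnr1) and 74.2 (mt-Rnr2) CPM per 1000 windows, below the 6 heavy-strand messengers. The library protocol, which decides how ribosomal RNA is kept or removed, is not given in the sources used here.

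The ribosomal RNA genes shared part of the pattern. mt-Rnr1 had 65.3, 86.7 and 58.4 CPM in WT 1, 2 and 3 and 56.3, 68.0 and 79.9 CPM in cKO 1, 2 and 3, and mt-Rnr2 had 92.4, 138 and 86.6 CPM in WT and 74.6, 140.2 and 139 CPM in cKO. For both, the 3 highest libraries were again WT 2, cKO 2 and cKO 3. Their log2 fold changes were -0.04 (SE 0.14) and 0.16 (SE 0.22), with edgeR adjusted p of 0.919 and 0.794. mt-Rnr2 reads per 100 mt-Rnr1 reads ran from 133 in cKO 1 to 206 in cKO 2. The 22 tRNA genes together had 16 to 40 reads in a library.

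**Figure D3:**
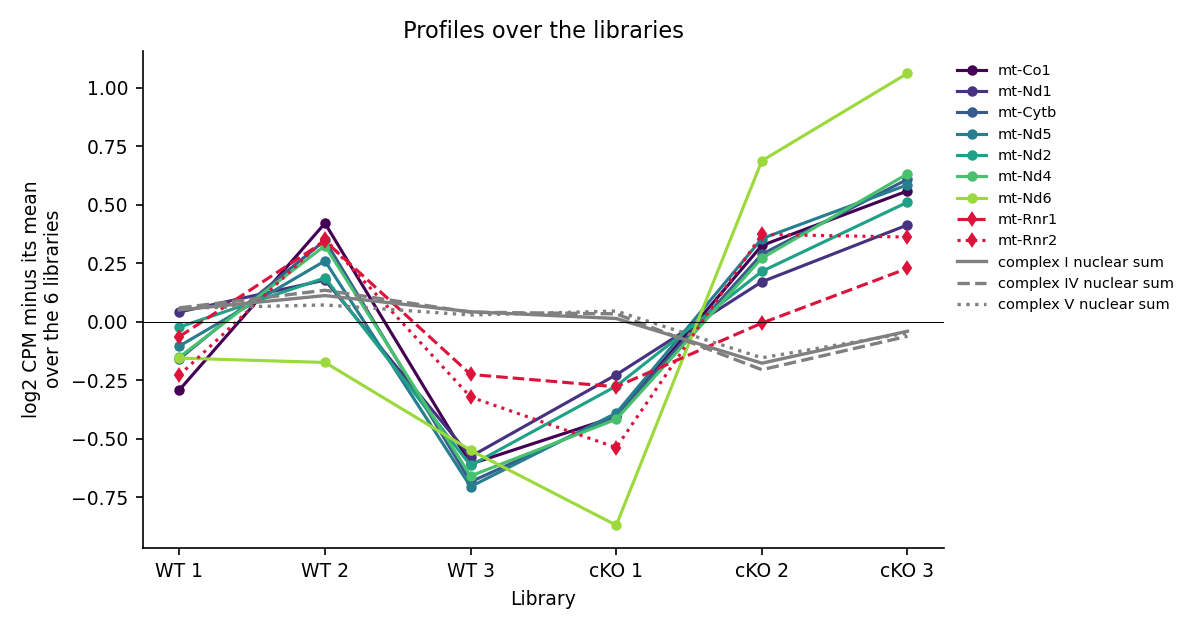
log2 CPM of each mitochondrial gene minus its mean over the 6 libraries, for the 7 protein-coding genes, the 2 ribosomal RNAs (red) and the summed nuclear subunits of complexes I, IV and V (grey); lines only join the values of one gene. The mitochondrial genes fall and rise together between -0.63 (shared profile, WT 3) and 0.62 (cKO 3), mt-Nd6 goes furthest, and the nuclear sums stay near 0 and are lowest in cKO 2.

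Reads on the strand opposite each gene were examined because mitochondrial DNA is transcribed in both directions. Opposite the ribosomal RNA genes, mt-Nd1, mt-Co1 and mt-Cytb, these reads made up 0.0525% to 0.322% of the reads of both strands in the 6 libraries. The RNA counted over those genes was thus almost wholly of the gene's own strand. Opposite mt-Nd2 they made up 0.517% to 0.960%, opposite mt-Nd4 1.39% to 2.78% and opposite mt-Nd5 7.04% to 9.42%. mt-Nd5 lies next to mt-Nd6, so its opposite strand continues the RNA of mt-Nd6, which is transcribed towards it.

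For mt-Nd6 the balance was the other way round. In WT 1, 2 and 3 there were 4492, 6480 and 3368 reads opposite mt-Nd6, and in cKO 1, 2 and 3 there were 4801, 6100 and 7219. These outnumbered the reads of mt-Nd6 itself in each library, from 5.21 times in cKO 3 to 10.6 times in cKO 1. They continue the direction of mt-Nd5. Per window their number was 1.06 to 1.14 times that of mt-Nd5 in the 6 libraries, so on this scale the heavy-strand RNA over mt-Nd6 stood at the level of its neighbour. A count that ignores strand gives mostly this RNA under the name of mt-Nd6, and the log2 fold change of mt-Nd6 was 0.44 with unstranded counts (edgeR adjusted p 0.440).

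Light-strand RNA, taken as the reads of mt-Nd6 and those opposite the heavy-strand protein and ribosomal RNA genes, made up 1.59%, 1.28% and 1.65% of mitochondrial reads in WT 1, 2 and 3 and 1.38%, 2.05% and 2.04% in cKO 1, 2 and 3. The share was highest in cKO 2 and cKO 3, and the groups overlapped through cKO 1. Reads opposite mt-Nd5, which did not enter the count of mt-Nd6, had 23.2, 27.2 and 17.3 CPM in WT and 19.1, 39.9 and 46.4 CPM in cKO. They were thus highest in cKO 2 and cKO 3, as mt-Nd6 was, and cKO 1 stood below WT 1 and WT 2.

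**Figure D4:**
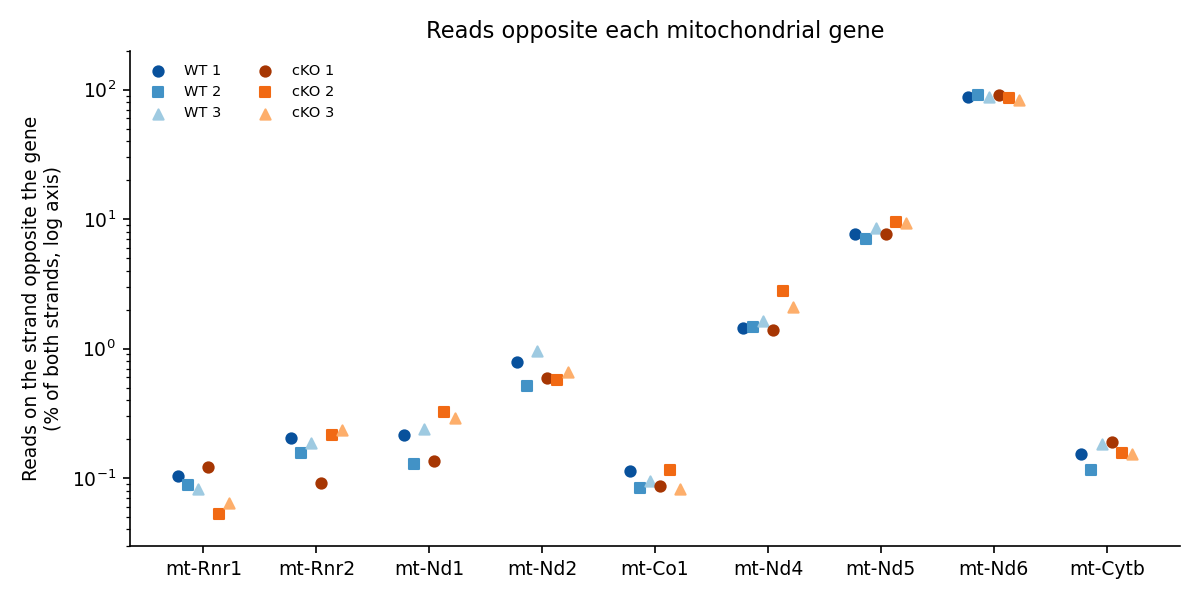
Reads on the strand opposite each mitochondrial gene as a percentage of the reads of both strands (log axis), in the 6 libraries, with genes in genome order. The values are at or under 0.322% for the ribosomal RNAs, mt-Nd1, mt-Co1 and mt-Cytb, rise to between 7.04% and 9.42% for mt-Nd5, and are between 83.9% and 91.4% for mt-Nd6.

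Nuclear genes that act on mitochondrial DNA and RNA were compared from fixed lists. Polrmt, the mitochondrial RNA polymerase, had 33.0 ± 3.15 CPM (SD, n = 3) in WT and 35.2 ± 2.66 CPM (SD, n = 3) in cKO. Tfam, which packages mitochondrial DNA and starts its transcription, had 173, 176.5 and 187 CPM in WT and 169, 154 and 169 CPM in cKO, without overlap, a log2 fold change of -0.12 (edgeR adjusted p 0.434). Of the 10 transcription genes 0 passed the edgeR threshold, 9 had negative log2 fold changes, and the median was -0.10. Mterf1a, a termination factor, had a log2 fold change of -0.38 (edgeR adjusted p 0.323) and was named by a rule that asks for non-overlapping groups.

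Among the 10 replication genes, Polg, the DNA polymerase, and Twnk, the helicase, had log2 fold changes of 0.10 and 0.07 (edgeR adjusted p 0.576 and 0.731). The list had 0 called and a median of 0.07. Among the 20 genes of RNA processing and stability, Lrpprc and Slirp, which bind together and protect mitochondrial messengers, differed in sign. Lrpprc had 54.8 ± 1.97 CPM (SD, n = 3) in WT and 59.7 ± 2.00 CPM (SD, n = 3) in cKO, without overlap. Slirp had 34.3, 41.6 and 38.0 CPM in WT and 30.6, 26.5 and 34.8 CPM in cKO, with 1 cKO library above WT 1. Their log2 fold changes were 0.13 and -0.31 (edgeR adjusted p 0.412 and 0.298). That list had 0 called and a median of 0.02.

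Of 9 nuclear regulators of mitochondrial genes 0 were called, with a median of 0.06. Pprc1, a coactivator of nuclear genes for mitochondria, had a log2 fold change of 0.26 (edgeR adjusted p 0.303) and was named by the same rule. Of 17 general mitochondrial genes, such as outer membrane channels, import receptors and chaperones, 0 were called, 6 had positive and 11 negative log2 fold changes, and the median was -0.05.

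The nuclear-encoded subunits that assemble with the 10 gene products had mostly lower values in cKO, the opposite sign to the mitochondrial genes. Of 80 tested subunits of complexes I, III, IV and V, 0 passed the edgeR threshold and 72 had negative log2 fold changes. At an unadjusted p under 0.05, 31 (38.8%) were lower, beside 6.54% of all genes tested, and 34 (42.5%) had lower, non-overlapping cKO values, beside 8.86%. DESeq2 called 1 of them, Ndufb8 (log2 fold change -0.33, adjusted p 0.0431), beside 1.78% of all genes to which it gave an adjusted p (0.948% lower in cKO). Subunits share a function and their levels may vary together, so these counts are not of independent genes.

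By complex, the medians were -0.13 for 36 subunits of complex I, -0.17 for 9 of complex III, -0.19 for 16 of complex IV and -0.16 for 19 of complex V. Summed, the complex I subunits had 2231, 2328 and 2219 CPM in WT 1, 2 and 3 and 2175, 1905 and 2094 CPM in cKO 1, 2 and 3, without overlap. The complex IV subunits had 1587, 1672 and 1567 CPM in WT and 1559, 1321 and 1459 CPM in cKO, also without overlap, while the sums of complexes III and V overlapped through cKO 1. Thus cKO 2 and cKO 3, among the highest libraries for the mitochondrial genes, were the lowest for these nuclear sums, whereas WT 2 was high in both. Round spermatid markers were also lower in cKO, at 1046 to 1156 CPM in WT and 999 to 1036 CPM in cKO. Of these, 5 of 6 genes had negative log2 fold changes, and the sums of cKO 3 (998.97 CPM) and cKO 2 (999.56 CPM) were nearly equal. Elongating spermatid markers, like the sums of the complexes, were lowest in cKO 2. Leydig cell markers, at 772 to 924 CPM in WT and 712 to 926 CPM in cKO, were also lowest in cKO 2, with 5 of 6 genes at negative log2 fold changes. Their part in the subunit levels was not tested. After correction for GC content and transcript length the medians were -0.06, -0.06, -0.04 and -0.05 for complexes I, III, IV and V, and 0.48 for the 7 mitochondrial genes.

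Named subunits gave the size of these differences. Ndufb8, an accessory subunit of complex I, had 90.3, 106 and 101 CPM in WT and 72.7, 75.4 and 89.6 CPM in cKO (edgeR adjusted p 0.277). Uqcrq, which sits beside cytochrome b in complex III, had 217, 251 and 226 CPM in WT and 207, 168 and 193 CPM in cKO (edgeR adjusted p 0.288). Cox4i1, a regulatory subunit of complex IV, had 321, 351 and 315 CPM in WT and 313, 246 and 279 CPM in cKO (edgeR adjusted p 0.307). The rule chose these genes for groups that do not overlap, though for Cox4i1 cKO 1 lay just under WT 3.

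Atp5e, the epsilon subunit of ATP synthase, and Atpif1, its inhibitor, had log2 fold changes of -0.32 and -0.24 (edgeR adjusted p 0.306 and 0.307). The remaining genes named by the rule, Ndufb2, Ndufb9, Uqcr10, Uqcrc2, Cox7a2l, Cox7a2 and Atp5mpl, had log2 fold changes from -0.34 (Ndufb2) to -0.17 (Uqcrc2) with edgeR adjusted p from 0.288 to 0.313. Without cKO replicate 1, 4 nuclear genes of the lists passed the threshold, each lower in cKO: Ndufa3, Uqcrq, Cox4i1 and Atpif1 (edgeR adjusted p 0.0305 to 0.0469), among 628 genes in all (2.82%, with 0.359% lower in cKO). They are named after their values were seen.

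**Figure D5:**
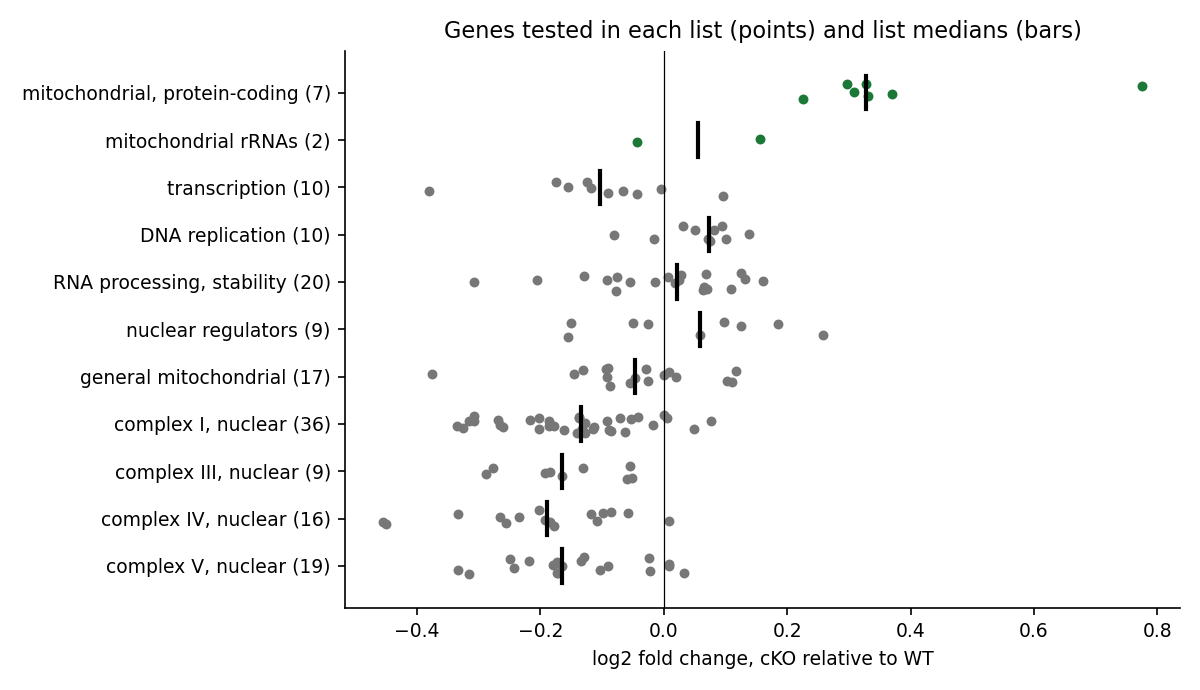
log2 fold change of cKO relative to WT for each tested gene (points) of the mitochondrial and nuclear lists, with the number tested in brackets and the list median (bar). The 7 mitochondrial protein-coding genes lie between 0.23 and 0.77, and the medians of the nuclear subunit lists lie between -0.19 and -0.13.

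Other measures of the libraries were set beside the shared profile. Reads outside genes made up 4.98%, 6.65% and 6.08% of WT 1, 2 and 3 and 5.05%, 6.94% and 5.85% of cKO 1, 2 and 3. WT 2 and cKO 2 were high in these as in mitochondrial RNA, but WT 3, the lowest library for mitochondrial RNA, stood above cKO 3. The elongating spermatid markers were highest in WT 3 and lowest in cKO 2, with 4 of 6 genes at negative log2 fold changes. The 6 Sertoli cell markers had positive log2 fold changes, with sums of 1183 to 1437 CPM in WT and 1216 to 1572 CPM in cKO and cKO 1 the highest. The 6 macrophage markers had negative ones, with sums of 50.1 to 67.5 CPM in WT and 48.5 to 55.0 CPM in cKO. The 5 red blood cell markers, with sums of 26.6 to 33.3 CPM over the 6 libraries, were highest in cKO 3, though 4 of 5 genes had negative log2 fold changes. Endothelial markers had sums of 21.3 to 23.8 CPM in WT and 23.3 to 26.3 CPM in cKO and were highest in cKO 3 and cKO 2, with 4 of 5 genes at positive log2 fold changes. Peritubular myoid markers had sums of 118 to 122 CPM in WT and 113 to 135 CPM in cKO, highest in cKO 2 and cKO 3 and lowest in cKO 1, with 1 of 5 genes at a positive log2 fold change. Spermatocyte markers had sums of 1561 to 1580 CPM in WT and 1565 to 1612 CPM in cKO. They were highest in cKO 2 and cKO 3, with 3 of 6 genes at positive log2 fold changes. Spermatogonia markers had sums of 98.1 to 112 CPM in WT and 97.4 to 109 CPM in cKO, highest in WT 1, with 4 of 6 positive. The part of these cell types in the mitochondrial levels was not tested.

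Finally, the nuclear genes with the most similar profile were listed, by root mean square distance of centred log2 CPM from the shared profile over the 6 libraries, among 16818 genes. They were Zbtb20 (0.17), a zinc finger transcription factor, Nav1 (0.19), a microtubule-associated protein, Maml2 (0.19), a Notch coactivator, Col1a1 (0.19), a collagen chain, and Fmod (0.21), a collagen-binding proteoglycan. Zbtb20 had 18.3, 23.6 and 17.0 CPM in WT 1, 2 and 3 and 16.2, 33.0 and 31.2 CPM in cKO 1, 2 and 3. Its highest libraries were cKO 2, cKO 3 and WT 2, the same set as for most mitochondrial genes, though it was lowest in cKO 1. Zbtb20 was chosen for its nearness to the shared profile, so this likeness is no separate result. Its edgeR adjusted p was 0.379.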

How the data were processed

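RNA of 6 mouse testis libraries was sequenced as single-end reads of 75 bp, per the labels' protocols. The authors deposited raw counts of reads per gene, per the file layout that of STAR, which counts uniquely mapped reads (unstranded, same-strand and opposite-strand). The submitters' processing notes name STAR, HTSeq, DESeq2 and the build mm10 without versions or roles. Lines that name no gene held 14.8% to 16.7% of reads and were left out.

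Opposite-strand counts, 96.0% to 96.2% of both strand columns, were used. GENCODE M21 named 52147 of the 53700 identifiers and supplied sequences and mm10 coordinates. For Atp5o, with more than 1 identifier, that with most reads was taken. edgeR 4.0.16 in R 4.3.3 was run with TMM scaling, filterByExpr (minimum count 10), and a quasi-likelihood test for the difference between cKO and WT, with group as the sole term. p-values of 21902 genes were adjusted by Benjamini-Hochberg (threshold 0.05). SDs of log2 CPM used a pseudocount of 0.5 CPM, as did profiles of nuclear genes. Standard errors came from the F statistic. The procedure was tested on simulated data. Alternatives were RLE scaling, library totals, no filter, at least 10 reads in every library, unstranded counts, a replicate block, robust fitting, DESeq2 1.42.0, each library left out, and a loess correction (span 0.3) for GC content and transcript length.

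Named genes were the mitochondrial protein and ribosomal RNA genes, Msl3, Polrmt, Tfam, Twnk, Polg, Lrpprc, Slirp, up to 3 genes per nuclear list of smallest p with unadjusted p under 0.05 and non-overlapping groups, and the 5 nearest nuclear profiles. Genes and lists were chosen with earlier results of these data known.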

Additional observations from a re-analysis of the deposited data

How the results depend on the processing

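Of the 7 tested mitochondrial genes 0 passed the threshold under 13 of 15 other settings. Without a filter on low counts 6 did, mt-Nd1 being the exception. So did 14 nuclear genes of the lists, among 757 genes in all (2.07%) against 4. In that fit edgeR's prior degrees of freedom, 7.90 with the filter, were infinite, so a gene's own spread did not enter its test. Why they became infinite was not tested. DESeq2 called 0 of the 7 and 1 nuclear list gene, among 209 calls in all. With single libraries left out, from 0 to 1 of the 7 genes and from 0 to 4 nuclear list genes passed, the highest counts without cKO replicate 1; calls over all genes numbered 628 in that fit, 116 where WT replicate 1 was dropped, and 1 to 7 for the other libraries. No setting turned the direction of a mitochondrial gene, and the median log2 fold change of the 7 stayed between 0.10 and 0.61. The summed level in cKO was 1.07 to 1.48 times that in WT when single libraries were left out, against 1.24 with all 6. Pairing by number was not assumed, because the labels do not state it. The deviations of WT and cKO libraries of equal number correlated at 0.38, 0.26 and -0.07 over genes. For libraries of unlike number the correlations ran from -0.39 to 0.16. Whether libraries of equal number share a factor was not tested. Adding the replicate block gave 49 calls in all and 0 among the 7 genes, whose median was then 0.32. Of the genes with reads, mt-Nd6 had the fewest, 454 to 1386 per library, and the 3 genes at 0 could not be tested.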
